A study of Arabidopsis thaliana with 9 samples.

Results

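Genes that plants use to answer a wound and to start callus were followed here through Arabidopsis thaliana leaf and callus. The set had 9 named genes, given by gene identifier, with no measured value in the rule that picks them: WIND1, WIND2, WIND3, WIND4, ERF109, ERF114, ERF115, ABR1 and PAT1. The first 8 named encode AP2/ERF transcription factors, whereas PAT1 encodes a GRAS protein, so the set is not made of ERF genes alone. Of the 9 genes, 8 were listed in at least 1 of the 3 deposited tables, which together list 18861 genes. The leaf table held 5 of them, each callus table held 7, and 4 genes (WIND1, WIND2, ABR1 and PAT1) stood in all 3 tables. A gene missing from a table had a group mean of at most 1 RPKM (reads scaled to gene length and to a denominator for each library), and WIND4 was missing from every table.

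In Arabidopsis, cutting an organ switches on WIND1 and its close relatives within the DREB A-6 subgroup, and forced expression of a WIND gene is enough to make tissue form callus. ERF114, ERF115, ABR1 and ERF109 belong to ERF group X, whose members respond to wounding, jasmonate or cell death. ERF115 binds PAT1, and that pair drives divisions that replace lost stem cells. Callus made on auxin-rich medium follows a programme shared with lateral root founder cells, while ERF109 links jasmonate to auxin synthesis in roots.

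Polyadenylated RNA was sequenced from 3 groups of 3 libraries, called biological replicates in the labels. Leaf libraries came from rosette leaves of wild-type Col-0 plants grown for 1 week on MS medium under continuous light and for 2 weeks on soil under 16 h of light per day. Wild-type callus (WT callus) and emf2 callus came from trimmed cotyledons of Col-0 and emf2 seedlings, raised from seed on Gamborg B5 medium with 2.2 µM 2,4-D, a synthetic auxin, and 0.46 µM kinetin, a cytokinin. Calli were subcultured in the dark and used at 6 to 8 weeks of age. The file headers give the mutant allele as emf2-1, a mutation of EMF2, which encodes a subunit of Polycomb Repressive Complex 2, the enzyme that places the repressive mark H3K27me3. Tissue, hormones, light and age changed together between leaf and callus, and their parts in any difference cannot be told apart. The labels do not say whether replicates came from separate plants or plates, so p-values measure the spread between these libraries, which may be technical. In such bulk RNA, fewer cells expressing a gene and less RNA per cell cannot be told apart.

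Recovered reads numbered 40.2 to 53.5 M per library, with 608 to 1381 reads on the median listed gene. All 8 photosynthesis markers were listed in leaf, with summed levels of 48893 to 76255 RPKM, against 4.99 to 49.0 RPKM in callus libraries. Of 7 root founder markers, 1 was listed in leaf, 6 in WT callus and 7 in emf2 callus. EMF2 itself stood at 7.43, 6.78 and 7.55 RPKM in WT callus and at 13.0, 15.5 and 16.3 RPKM in emf2 callus (log2 fold change 0.95, SE 0.52, limma adjusted p = 0.656). The sources used here do not say whether the emf2-1 allele lowers its own transcript, so this level is no check of the genotype. In leaf, EMF2 stood at 5.50, 6.07 and 29.6 RPKM, so leaf replicate 3 stood apart. The fit takes 1 spread per gene over all 3 groups, so this library widens the SE of EMF2 between callus genotypes. The SD of EMF2 was 13.8 RPKM in leaf, 0.414 in WT callus and 1.70 in emf2 callus (n = 3). Its adjusted p therefore does not measure the spread of the callus libraries alone. WT callus replicate 2 had a correlation of 0.974 with emf2 callus replicate 1, above its 0.955 and 0.928 with the other WT callus libraries (log2(RPKM + 1) over the genes in all 3 tables). Results that rest on WT callus replicate 2 or on leaf replicates 2 and 3 are also given without them where that changed a call.

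The sequences just before 4 of the genes are shown because these genes had the widest differences in the set. WIND3 and ERF109 lay at opposite ends of the contrast between leaf and callus, and ERF114 and ERF115 had the largest log2 differences of the set between callus genotypes, though neither passed the test. Each window is the 250 bases before the annotated start (TAIR10.1, RefSeq), 5′ to 3′ on the gene's own strand. No other annotated gene overlapped these windows. They are chr1:13456337-13456586 on the minus strand for WIND3, chr4:16451626-16451875 on the plus strand for ERF109, chr5:24853942-24854191 on the minus strand for ERF114 and chr5:2305301-2305550 on the plus strand for ERF115. Capitals mark matches on either strand to the W-box core TTGAC (or GTCAA), the GCC box GCCGCC, the dehydration-responsive core CCGAC, the telobox AAACCCTA and the G-box CACGTG, and no match in these windows overlapped another.
WIND3: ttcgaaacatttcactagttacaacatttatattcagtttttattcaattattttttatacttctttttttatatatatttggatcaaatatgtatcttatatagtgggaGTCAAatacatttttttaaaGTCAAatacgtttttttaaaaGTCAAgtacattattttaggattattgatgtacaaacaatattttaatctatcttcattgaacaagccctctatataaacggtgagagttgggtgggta
ERF109: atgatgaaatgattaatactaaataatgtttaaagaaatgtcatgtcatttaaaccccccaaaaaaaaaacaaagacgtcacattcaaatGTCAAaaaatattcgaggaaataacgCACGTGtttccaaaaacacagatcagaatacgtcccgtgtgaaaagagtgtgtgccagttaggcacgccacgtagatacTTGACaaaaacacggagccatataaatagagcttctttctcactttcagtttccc
ERF114: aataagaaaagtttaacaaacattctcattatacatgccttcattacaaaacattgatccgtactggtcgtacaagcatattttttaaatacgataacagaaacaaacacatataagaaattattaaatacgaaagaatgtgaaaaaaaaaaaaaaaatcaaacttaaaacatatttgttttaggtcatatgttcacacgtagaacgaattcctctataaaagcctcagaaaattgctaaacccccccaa
ERF115: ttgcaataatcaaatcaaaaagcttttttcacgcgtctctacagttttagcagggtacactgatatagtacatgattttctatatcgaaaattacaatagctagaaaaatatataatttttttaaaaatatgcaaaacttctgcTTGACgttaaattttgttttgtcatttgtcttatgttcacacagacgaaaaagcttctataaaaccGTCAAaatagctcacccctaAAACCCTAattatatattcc

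W-box cores, the element that WRKY factors bind, began 140, 120 and 99 bases before the start of WIND3, and at 160 and 55 bases before that of ERF109. A G-box lay 134 bases before the start of ERF109. ERF115 had W-box cores at 106 and 40 bases and a telobox at 20 bases, whereas none of the searched letters occurred in the ERF114 window. Among all 27443 windows of protein-coding genes, 44.9% held a W-box core, 6.5% a G-box and 4.5% a telobox. Of the other genes in the set, WIND4 and PAT1 held W-box cores, ABR1 held a GCC box (in 1.9% of all windows) and a dehydration-responsive core (in 12.0%), and WIND1 and WIND2 held none. A match is a run of letters and not a measured binding site.

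**Figure D1:**
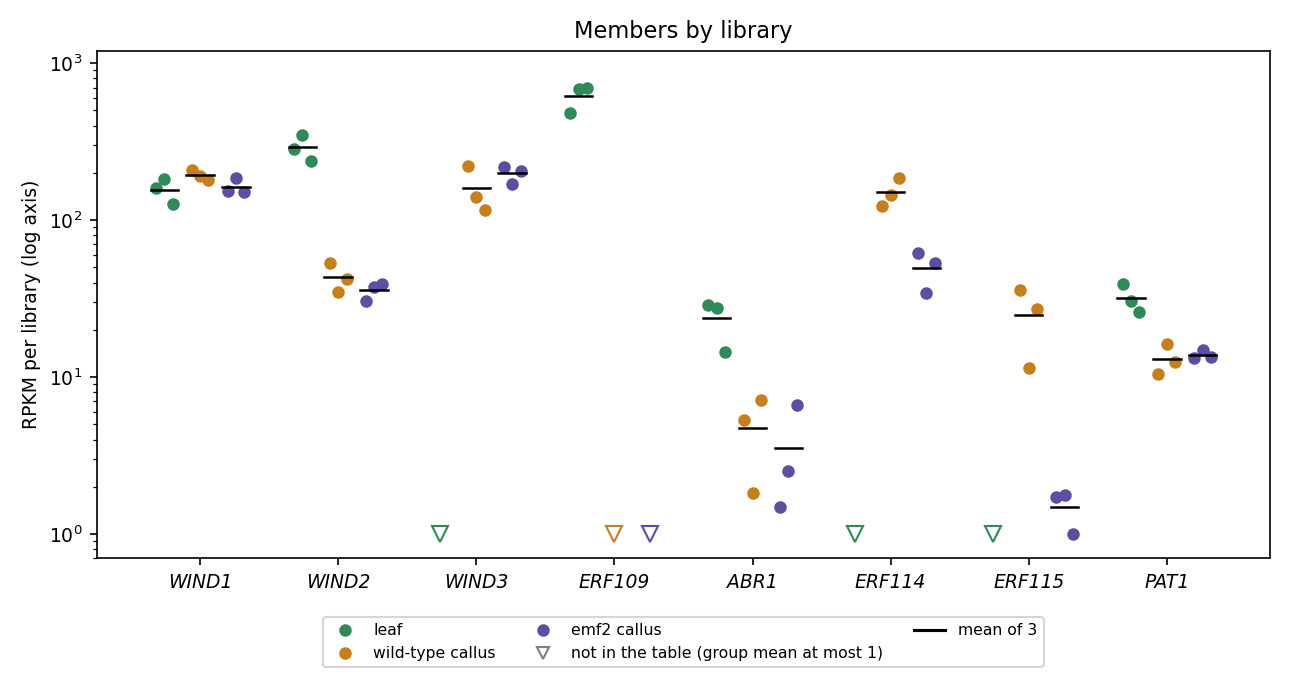
RPKM of each listed gene in every library, on a log axis, with 3 points per group and a bar at the group mean. Open triangles at 1 RPKM mark groups whose table does not list the gene, as for ERF109 in both callus groups and for WIND3, ERF114 and ERF115 in leaf.

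WIND1 (AT1G78080), the regulator of wound-induced dedifferentiation for which the group is named, was high in leaf and in callus and did not pass between them. WIND2 was high in leaf and low in callus, WIND3 was high in callus and missing from the leaf table, and WIND4 was in no table.

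WIND1 is a single-exon gene at chr1:29364072-29366207 on the plus strand (TAIR10.1, as for all coordinates here). Its RPKM values were 159, 183 and 127 in leaf, 207, 191 and 180 in WT callus, and 154, 185 and 151 in emf2 callus. The ranges of the groups overlapped in each pair. In WT callus against leaf the log2 fold change of RPKM + 1 was 0.31 (SE 0.18, 95% interval −0.10 to 0.73, limma adjusted p = 0.16), and in emf2 callus against leaf it was 0.07 (SE 0.18, adjusted p = 0.749). WIND1 was at the 95.3 percentile of the leaf table and at the 98.7 and 98.4 percentiles of the WT and emf2 callus tables. The WIND1 call depended on the scaling: it passed as higher in callus under library-total scaling (1.27, adjusted p = 0.000119) and under quantile normalization (1.19, adjusted p = 0.000338). The median of all genes in that contrast was 0.06 with the deposited values, 0.87 with library-total scaling and 0.17 with quantile normalization, so part of the WIND1 value under each is a shift of all genes.

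WIND2 (AT1G22190, chr1:7835781-7837411, plus strand, 1 exon) encodes a paralog of WIND1. Its leaf values were 284, 351 and 239 RPKM. They fell to 53.4, 34.7 and 42.3 RPKM in WT callus and 30.5, 37.7 and 39.4 RPKM in emf2 callus, with no overlap between leaf and either callus. Mean levels were 292 ± 56.3 (SD, n = 3) in leaf and 43.4 ± 9.42 (SD, n = 3) in WT callus, 6.71-fold lower. The log2 fold change was −2.72 (SE 0.21, limma adjusted p = 1.32e-05), and in emf2 callus against leaf it was −2.98 (SE 0.21, adjusted p = 7.83e-06). WIND2 kept its call under each of the alternatives tried, between −2.88 and −1.77 in WT callus.

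WIND3 (AT1G36060, chr1:13454496-13456336, minus strand, 1 exon) is the third paralog, and its upstream window is the first of those shown. It was missing from the leaf table and stood at 223, 141 and 116 RPKM in WT callus and at 219, 171 and 206 RPKM in emf2 callus. The callus groups overlapped. These levels rested on 10490 to 27994 reads per library. The WT callus mean of 160.1 ± 55.7 (SD, n = 3) was at least 160.1-fold higher than leaf, where the mean could be at most 1 RPKM. Tested against that bound, with the error of the callus libraries alone, the difference on the log2 scale was 6.28 (SE 0.20, limma adjusted p = 3.15e-06) in WT callus and 6.63 (SE 0.20, adjusted p = 2.52e-06) in emf2 callus.

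WIND2 made up 56.4 to 60.5% of the summed level of the DREB A-6 genes listed in leaf libraries, and WIND3 made up 34.2 to 54.2% in callus libraries. WIND1 made up 29.8 to 32.0% in leaf and 38.0 to 53.1% in callus. The subgroup has 10 genes, of which WIND4 and ERF062 were in no table. Besides WIND2, ERF060 was lower in WT callus (15.5 ± 2.12 in leaf, 1.62 ± 1.34 in WT callus, SD, n = 3; log2 fold change −2.76, SE 0.59, limma adjusted p = 0.00353). ERF053, ERF054, ERF056 and ERF061 were listed in leaf alone, with leaf means of 1.63 to 15.0 RPKM. They passed against the bound in WT callus against leaf, as 42.0% of the genes so tested did in that direction. Here and below, the direction of a call against the bound is fixed by which table lists the gene. The shares given are of all genes so tested, listed in either group. ERF056 lost that call under library-total scaling. WIND3 was the one gene of the subgroup that passed as higher in callus with the deposited scaling.

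**Figure D2:**
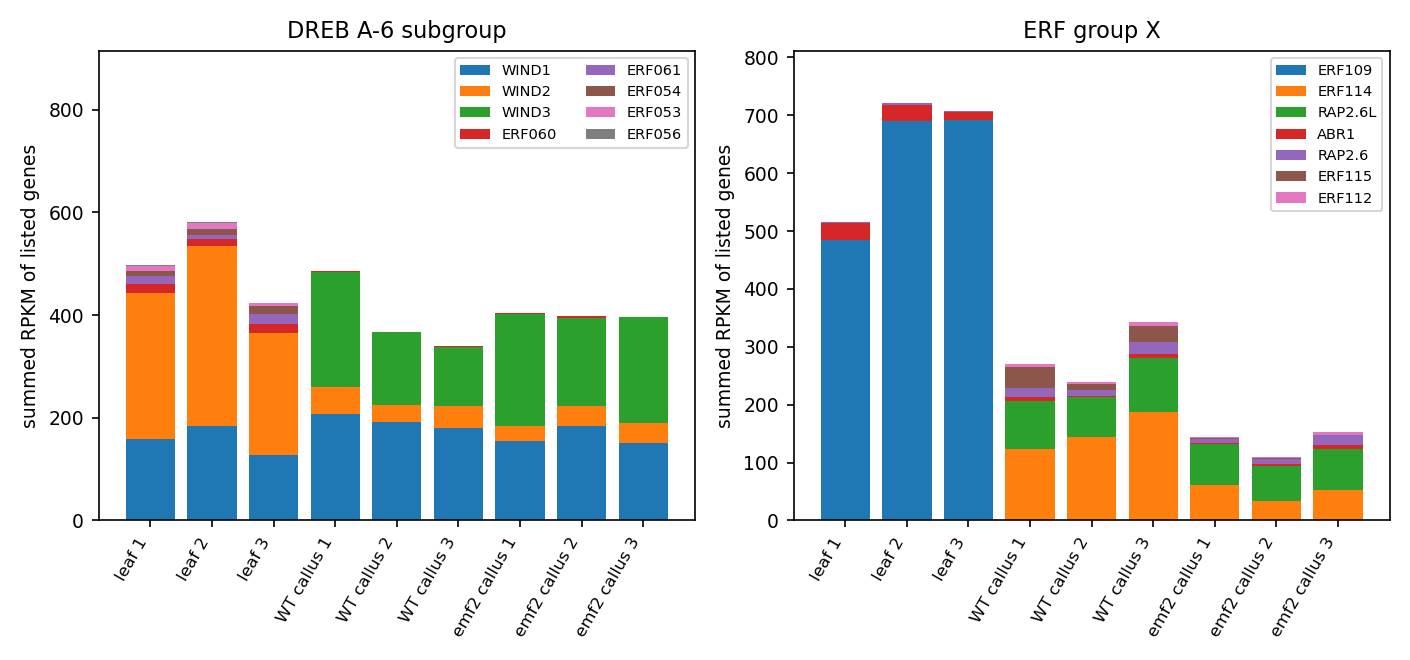
Stacked RPKM of the listed genes of the DREB A-6 subgroup (left) and ERF group X (right) in each library. With the deposited scaling the DREB A-6 sums are 424 to 581 in leaf and 339 to 487 in callus while WIND2 gives way to WIND3. Library-total scaling multiplies leaf values by 0.585 to 0.715 and callus values by 1.18 to 1.32. The order of leaf and callus sums therefore depends on the scaling. ERF109 fills 93.9 to 97.6% of the group X sum in leaf.

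In ERF group X, RAP2.6 and ABR1 were in all 3 tables and the other listed genes were in leaf or in callus alone. ERF109, a jasmonate- and redox-responsive factor, was among the highest genes of leaf and in neither callus table. ERF114 and ERF115, which drive organ regeneration and stem cell division, were in both callus tables and not in the leaf table. ABR1, a repressor of abscisic acid response that is also induced by wounding, was highest in leaf.

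ERF109 (AT4G34410, chr4:16451876-16453260, plus strand, 1 exon) stood at 484, 690 and 691 RPKM in the leaf libraries, from 18425 to 31044 reads. It ranked 162 of 16694 genes listed in leaf. With a mean of 622 ± 119 (SD, n = 3), leaf was at least 622-fold higher than either callus. Against the bound the difference was −8.26 (SE 0.20, limma adjusted p = 1.89e-05) for WT callus and −8.26 (adjusted p = 1.67e-05) for emf2 callus. Antisense genes overlap 962 bases of ERF109, and the counting is not stated to use strand. The overlapping gene AT4G34412 stood at 2.72 to 6.22 RPKM over all libraries. AT4G08985, a long noncoding RNA gene, was in no table, and whether it was among the genes counted is not given. The part of shared reads was not tested.

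ABR1 (AT5G64750, chr5:25891449-25893888, plus strand, 2 exons) gave 29.0, 27.7 and 14.4 RPKM in leaf. It gave 5.30, 1.83 and 7.16 RPKM in WT callus and 1.49, 2.53 and 6.64 RPKM in emf2 callus. Every leaf value was above every callus value, and the callus groups overlapped. Leaf averaged 23.7 ± 8.05 and WT callus 4.76 ± 2.71 (SD, n = 3), and the log2 difference was −2.17 (SE 0.52, limma adjusted p = 0.00619). In emf2 callus against leaf it was −2.54 (SE 0.52, adjusted p = 0.00277). The ABR1 span shares 109 bases with RPN5B, which stood at 4.63 to 8.39 RPKM, a range that includes 3 of the 6 callus values of ABR1, and the part of shared reads was not tested.

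ERF114 (AT5G61890, chr5:24852322-24853941, minus strand, 2 exons) stood at 124, 144 and 187 RPKM in WT callus and at 61.7, 34.3 and 53.1 RPKM in emf2 callus. The lowest WT callus library was above the highest emf2 callus library. Against the leaf bound ERF114 was higher by 6.23 (SE 0.19, limma adjusted p = 3.15e-06) in WT callus and by 4.62 (SE 0.19, adjusted p = 6.48e-06) in emf2 callus.

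ERF115 (AT5G07310, chr5:2305551-2306837, plus strand, 2 exons) stood at 35.7, 11.5 and 27.2 RPKM in WT callus and at 1.73, 1.76 and 1.00 RPKM in emf2 callus. These values rested on 2387, 731 and 1306 reads in WT callus and on 102, 121 and 48 reads in emf2 callus. The groups did not overlap, and WT callus replicate 2 was the lowest of its group. Against the leaf bound WT callus was higher by 3.55 (SE 0.29, limma adjusted p = 7e-05). In emf2 callus the mean of 1.50 ± 0.431 (SD, n = 3) did not pass against that bound (0.31, SE 0.29, adjusted p = 0.353).

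Other group X genes listed in callus were RAP2.6L, which acts in shoot regeneration, RAP2.6 and ERF112, while ERF110 was in no table. RAP2.6L was missing from leaf and stood at 83.3, 69.2 and 94.1 RPKM in WT callus and 70.0, 59.9 and 70.3 RPKM in emf2 callus. Against the bound it was higher by 5.37 in WT callus (SE 0.12, limma adjusted p = 1.68e-06). RAP2.6 rose from 3.02 ± 0.849 RPKM in leaf to 15.5 ± 5.33 RPKM in WT callus (SD, n = 3; log2 fold change 2.00, SE 0.35, limma adjusted p = 0.00127). ERF112 was at 2.73 to 7.33 RPKM in WT callus and also passed against the bound (1.58, SE 0.24, limma adjusted p = 0.00101). In the leaf libraries the group X sum was 516 to 721 RPKM, in WT callus 239 to 343 RPKM and in emf2 callus 110.2 to 153 RPKM. These sums use the deposited scaling. Library-total scaling multiplies leaf values by 0.585 to 0.715 and callus values by 1.18 to 1.32, so differences between leaf and callus sums depend on it.

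PAT1 (AT5G48150, chr5:19522238-19524788, minus strand, 3 to 4 exons in its 4 annotated mRNAs) was first described as a factor of phytochrome A signalling. It gave 39.5, 30.5 and 26.0 RPKM in leaf, 10.4, 16.4 and 12.5 RPKM in WT callus, and 13.2, 14.9 and 13.4 RPKM in emf2 callus. Each leaf value was above all callus values. The log2 fold change of WT callus against leaf was −1.23 (SE 0.20, limma adjusted p = 0.000763) and of emf2 callus against leaf −1.13 (SE 0.20, adjusted p = 0.00118). Under library-total scaling both calls were lost, at −0.31 (adjusted p = 0.167) and −0.18 (adjusted p = 0.396). The median of all genes was 0.87 and 0.91 in those contrasts under that scaling. Quantile normalization kept both calls.

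All 6 genes of the PAT1 branch of the GRAS family were listed in every table. SCL13, another phytochrome signalling gene and the highest of the branch in leaf, stood at 259 ± 27.3 RPKM in leaf and 24.7 ± 2.08 RPKM in WT callus (SD, n = 3; log2 fold change −3.34, SE 0.14, limma adjusted p = 6.2e-07). PAT1, SCL13 and SCL5 were lower in WT callus, SCL8 was higher (17.3 ± 3.50 RPKM in leaf, 44.0 ± 2.12 in WT callus, SD, n = 3) and SCL1 and SCL21 did not pass. Among all genes so tested 65.4% passed in either direction. Quantile normalization kept SCL8 as higher and PAT1, SCL13 and SCL5 as lower. With library-total scaling 3 of the 6 were higher and SCL13 alone was lower, so the direction of the branch depends on that scaling. The median of all genes was 0.87 there, against 0.06 with the deposited values.

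Counted over the set, 3 of the 4 genes listed in both leaf and WT callus passed (WIND2, ABR1 and PAT1), all lower in callus. Among all 14780 genes so tested 65.4% passed, and 31.8% passed as lower. These 3 also had ranges that did not overlap with leaf, as did 33.1% of all genes in the same direction. Of the genes listed in 1 of those groups, 4 of 4 in the set passed against the bound, where 76.8% of 3837 genes passed. WIND3, ERF114 and ERF115 passed as higher, like 34.8% of the genes so tested, and ERF109 as lower, like 42.0%. The table that lists a gene fixes the direction in which it can pass against the bound. Genes listed in the other group alone also count in these shares. Each share is therefore lower than among the genes able to pass that way. In emf2 callus against leaf the same 3 genes of 4 passed as lower, where 65.3% of 14693 genes passed, 31.2% as lower and 33.9% as lower without overlap. Against the bound 3 of 4 passed there, WIND3 and ERF114 as higher and ERF109 as lower, where 80.1% of 3954 genes passed, 37.3% as higher and 42.8% as lower. Calls between leaf and callus were thus common in the whole table, and these counts do not set the genes apart. The direction of such calls depends on scaling: 4969 genes were higher and 4703 lower in WT callus with the deposited values, but 9230 and 2487 with library-total scaling. Against the bound 1335 were higher and 1613 lower, and 1728 and 1296 with library-total scaling. Both callus groups were compared with the same leaf libraries, so their differences from leaf are not independent.

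**Figure D3:**
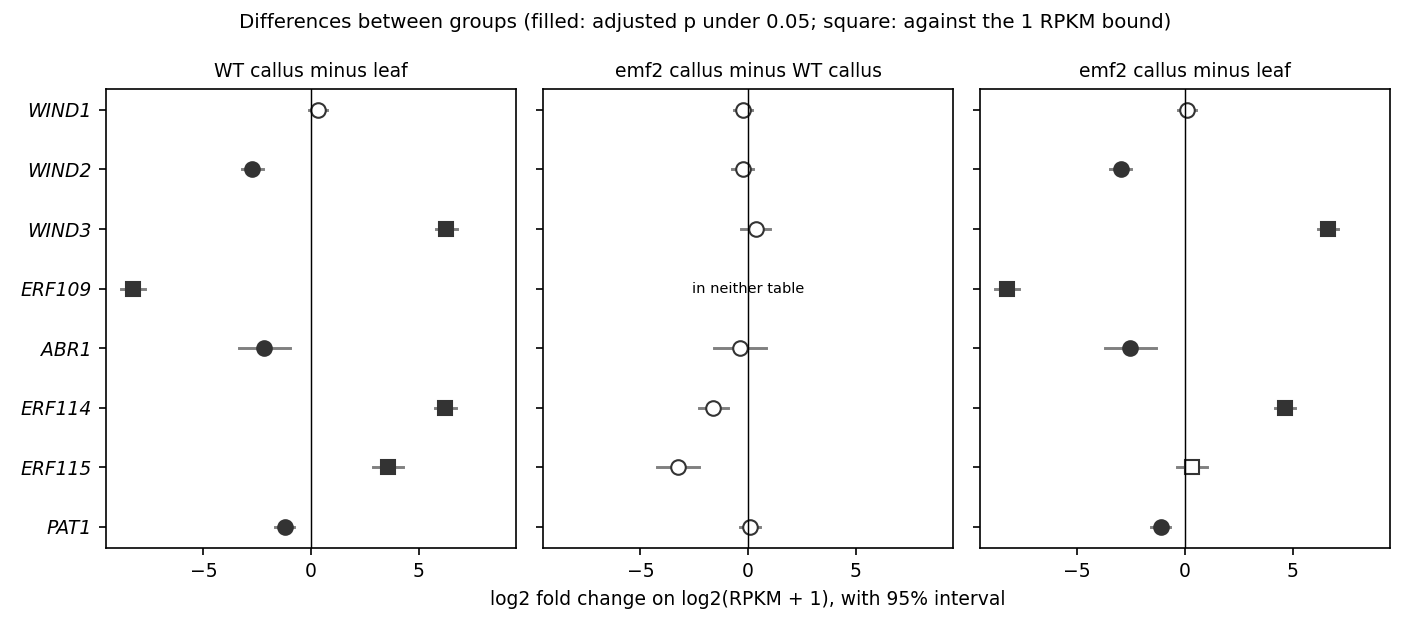
Log2 fold change of RPKM + 1 with its 95% interval for each gene in the 3 contrasts, filled where the limma adjusted p is under 0.05. Squares are tests against the 1 RPKM bound, and ERF115 has the lowest value between callus genotypes at −3.25.

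The comparison of emf2 callus with WT callus asks which genes differ in callus of a mutant in a Polycomb subunit gene. The repressive mark itself was not measured in these libraries. None of the 7 listed genes passed (0 of 7 by limma, where 0.0989% of all 16185 genes passed), and 2 of 7 had an unadjusted p under 0.05, where 9% of all genes did. These were ERF115 and ERF114, with lower values in emf2 callus. Their groups did not overlap, which held with the same direction for 8.89% of all genes.

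ERF115 was 16.5-fold lower in mean RPKM in emf2 callus. Its log2 fold change was −3.25 (SE 0.41, 95% interval −4.23 to −2.26, limma unadjusted p = 0.000172, adjusted p = 0.0634), and it ranked 42 of 16185 genes by p. All 3 emf2 callus libraries were below all 3 WT callus libraries. The call turned on single libraries and settings: ERF115 passed without WT callus replicate 2 (−3.70, adjusted p = 0.00986), without leaf replicate 3 (adjusted p = 0.0459), with quantile normalization (−3.46, adjusted p = 0.0442) and among genes of at least 5 RPKM (adjusted p = 0.0473). Over all 17 alternatives run for this difference the adjusted p was 0.00986 to 0.268.

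ERF114 was 3.05-fold lower in emf2 callus, with a log2 fold change of −1.61 (SE 0.27, 95% interval −2.27 to −0.94, limma unadjusted p = 0.00094, adjusted p = 0.14). It ranked 106 of 16185 genes by p and passed under none of the alternatives. The lowest adjusted p among them was 0.0868.

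For the other 5 genes the callus groups overlapped. The log2 fold changes were −0.24 for WIND1 (95% interval −0.66 to 0.17, adjusted p = 0.759), −0.26 for WIND2 (−0.74 to 0.23, adjusted p = 0.78) and 0.36 for WIND3 (−0.32 to 1.03, adjusted p = 0.774) by limma. ABR1 was at −0.37 with a wide interval of −1.56 to 0.82 (limma adjusted p = 0.887), and PAT1 at 0.10 with an interval of −0.36 to 0.55 (adjusted p = 0.932). A p that misses the threshold does not show that levels were equal.

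**Figure D4:**
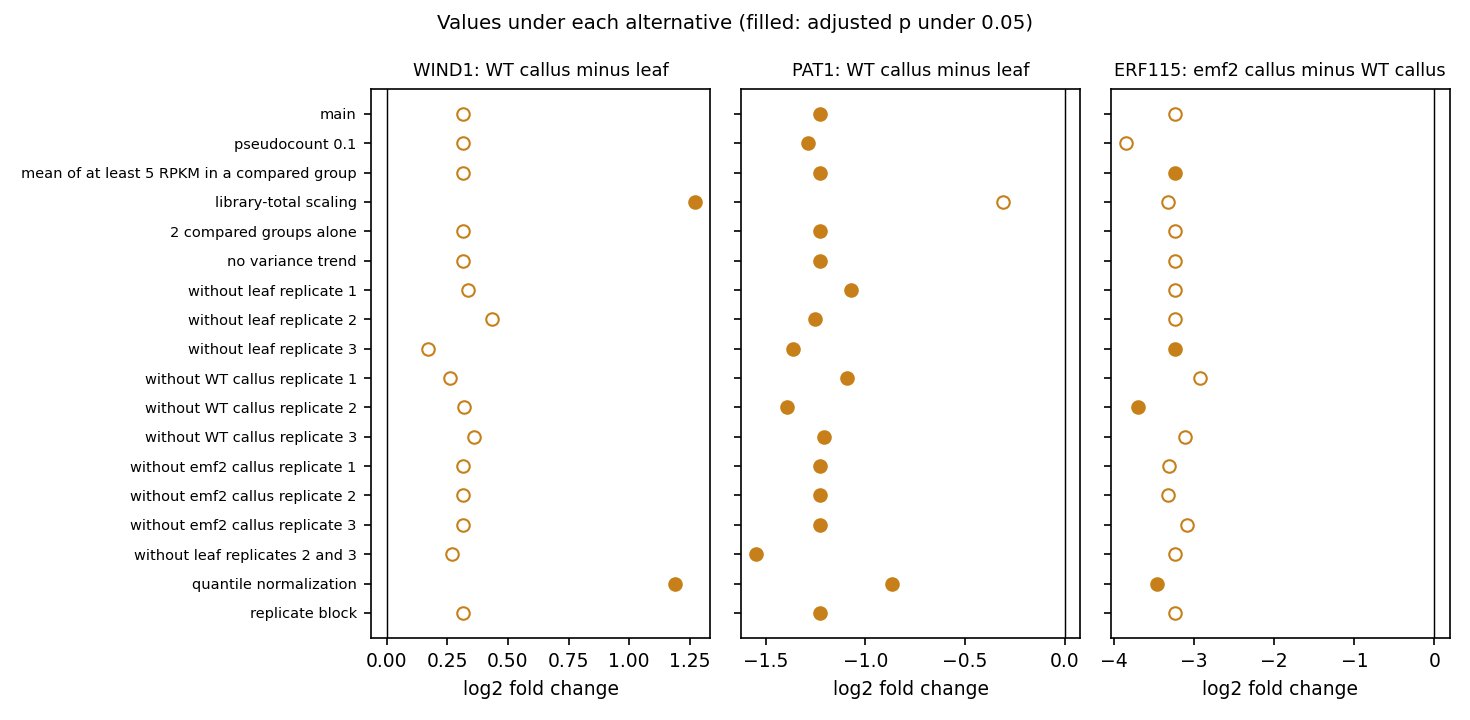
Log2 fold change of WIND1 and PAT1 in WT callus against leaf and of ERF115 in emf2 callus against WT callus under each alternative, filled where the adjusted p is under 0.05. WIND1 passes under the 2 other scalings, PAT1 fails under library-total scaling, and ERF115 keeps its direction throughout.

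The order of levels differed between the tables. In leaf it ran ERF109, WIND2, WIND1, PAT1, ABR1, with overlapping ranges only for the neighbours PAT1 and ABR1. In WT callus it ran WIND1, WIND3, ERF114, WIND2, ERF115, PAT1, ABR1, and the first 3 overlapped as neighbours, as did WIND2 with ERF115 and ERF115 with PAT1. In emf2 callus it ran WIND3, WIND1, ERF114, WIND2, PAT1, ABR1, ERF115, with overlaps of WIND3 with WIND1, ERF114 with WIND2 and ABR1 with ERF115. ERF115 moved from the 81.6 percentile of the WT callus table to the 5.18 percentile of the emf2 callus table, and ERF114 from 98.1 to 92.4.

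Reported targets and partners of these factors were examined as a list of 12 genes, chosen with earlier results of these data known; ESR2 and YUC2 were in no table. ESR1, a shoot regeneration gene that WIND1 activates, was missing from leaf. It stood at 10.3, 3.50 and 14.3 RPKM in WT callus and at 2.39, 1.1 and 1.45 RPKM in emf2 callus, without overlap. WT callus replicate 2 was the lowest of its group for ESR1, as for ERF115 and ABR1. Against the leaf bound it passed in WT callus (2.20, SE 0.33, limma adjusted p = 0.00105) and not in emf2 callus (0.38, SE 0.33, adjusted p = 0.323), and the difference between callus genotypes did not pass (−1.82, SE 0.47, adjusted p = 0.309).

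ASA1, the auxin-precursor enzyme gene that ERF109 activates in roots, was higher in WT callus, at 84.7, 115 and 113 RPKM against 24.6, 28.2 and 30.7 RPKM in leaf (log2 fold change 1.86, SE 0.23, limma adjusted p = 0.000176). ERF109 itself was in the leaf table alone, so their levels ran in opposite directions. MP, an auxin response factor of embryo and root development, rose from 2.63 ± 0.913 to 65.3 ± 3.90 RPKM (SD, n = 3; log2 fold change 4.22, SE 0.19, limma adjusted p = 7.85e-07). The cyclin gene CYCD3;1 rose from 5.37 ± 1.35 to 49.3 ± 20.6 RPKM (SD, n = 3; log2 fold change 2.90, SE 0.37, limma adjusted p = 0.000202). Of the phytosulfokine precursor genes, which encode a growth peptide, PSK5 was reported as an ERF115 target. PSK5 stood at 13.0 ± 4.76 RPKM in leaf, 5.14 ± 2.27 in WT callus and 1.73 ± 0.906 in emf2 callus (SD, n = 3).

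Of the 7 listed in leaf and WT callus, ASA1, CCS52A2, CYCD3;1 and MP rose, PSK2 and PSK5 fell and XTH19 did not pass. Among all genes so tested 65.4% passed in either direction, 31.8% as lower and the rest of them as higher. The median log2 fold change was 1.19 against 0.06 over all genes tested. ESR1, NAC071 and XTH20 passed against the bound as higher, where 76.8% of all genes so tested passed, 34.8% as higher. Library-total scaling took the call of PSK5 and gave one to XTH19. Between callus genotypes 0 of 10 passed by limma and 4 of 10 had an unadjusted p under 0.05, namely ASA1 (−0.87), ESR1 (−1.82), PSK5 (−1.15) and PSK2 (1.47). Of all genes 0.0989% passed and 9% had such a p.

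Genes that wounding or touch induces within minutes were examined as a list of 18, of which CBF3 was in no table. In WT callus against leaf 13 of 14 were lower and ERF6 did not pass, where 31.8% of all genes tested were lower, with a median log2 fold change of −3.41 against 0.06 over all genes tested. The calcium-binding gene TCH3 went from 1439 ± 125.8 to 103 ± 28.7 RPKM (SD, n = 3) and the zinc-finger gene ZAT10 from 863 ± 113 to 38.0 ± 23.7 RPKM (SD, n = 3). CBF1, CBF2 and ZAT11 were listed in leaf alone and passed against the bound, as 42.0% of the genes so tested did in that direction. With either other scaling 11 of the 14 were lower, and ERF104, ERF5 and ERF6 did not pass. Over the 14 genes the library medians were 252, 307 and 445 RPKM in leaf, 47.8, 23.0 and 29.3 RPKM in WT callus, and 23.9, 30.3 and 32.7 RPKM in emf2 callus. Between callus genotypes 0 of 14 passed by limma, where 0.0989% of all genes passed. Of the 14, 3 had an unadjusted p under 0.05, where 9% of all genes did. The rapid wound genes were thus higher in leaf than in callus, as were ERF109, WIND2 and ABR1, and their part in those levels was not tested. Within leaf, replicate 3 had the highest rapid wound median (445 RPKM). ERF109 was nearly level in replicates 2 and 3 (690 and 691 RPKM) and lower in replicate 1 (484 RPKM). Leaf replicate 3 had the lowest leaf values of WIND2 (239 RPKM) and ABR1 (14.4 RPKM).

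Genes of jasmonate synthesis and response moved the same way. All 20 on the list were in the leaf table, and 14 of 14 listed in both groups were lower in WT callus, where 31.8% of all genes tested were, with a median log2 fold change of −3.87. AOS, an enzyme of jasmonate synthesis, went from 741 ± 279 to 20.7 ± 4.96 RPKM and MYC2, the main transcription factor of the response, from 434 ± 85.9 to 26.7 ± 6.71 RPKM (SD, n = 3). AOC2, LOX2, JAZ7, JAZ9 and VSP2 were in leaf alone and passed against the bound, as 42.0% of the genes so tested did in that direction, and VSP1 did not. JAR1, JAZ10 and JAZ3 lost their calls under both other scalings. Between callus genotypes 0 of 12 passed by limma, and 0 had an unadjusted p under 0.05, where 0.0989% and 9% of all genes did. AOC1 and LOX3, listed in WT callus alone of the pair, did not pass against the bound.

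Callus-forming LBD and PLT genes, which act in lateral root founder cells, ran the other way. PLT3 was missing from leaf and stood at 64.2, 79.0 and 47.7 RPKM in WT callus (4.98 against the bound, SE 0.15, limma adjusted p = 2.98e-06). LBD16, LBD18 and PLT7 also passed against the bound, where 34.8% of all genes so tested passed as higher. PLT5 rose by 2.78 (SE 0.17, limma adjusted p = 3.77e-06). Of all genes listed in both groups 65.4% passed in either direction, 31.8% as lower and the rest of them as higher. LBD17 was in no table. Between callus genotypes PLT5 went from 13.0, 15.2 and 12.4 to 5.13, 3.79 and 6.11 RPKM, without overlap (log2 fold change −1.29, SE 0.17, limma adjusted p = 0.0505). PLT5 passed as lower with either other scaling. The other 4 listed in both callus tables did not pass (−0.20 to 0.37), and LBD29, in the emf2 callus table alone at 1.46 to 2.25 RPKM, did not pass against the bound (limma adjusted p = 0.118).

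**Figure D5:**
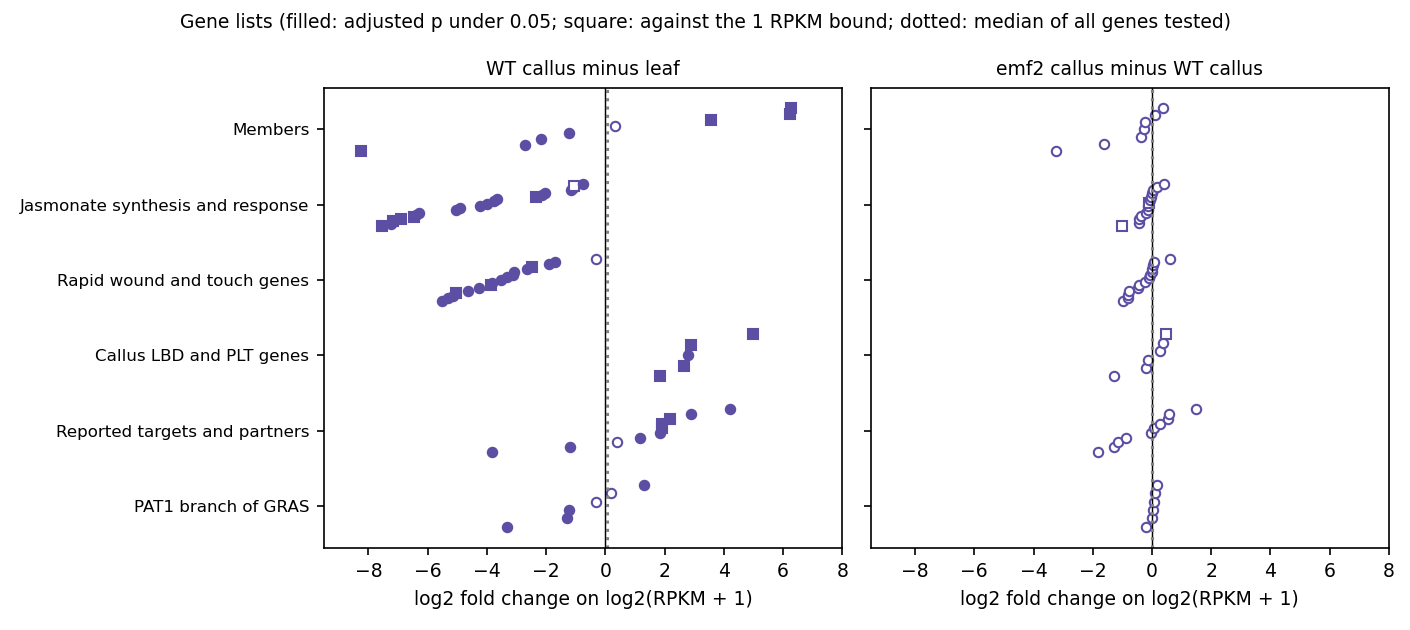
Log2 fold change of RPKM + 1 for every tested gene of the set and of 5 related lists, in WT callus against leaf (left) and emf2 callus against WT callus (right), filled where the limma adjusted p is under 0.05, with squares for tests against the bound. Jasmonate and rapid wound genes lie below 0 in the left panel, LBD and PLT genes above it, and no point is filled in the right panel.

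The genes with the most similar pattern were sought among the 14475 other genes in all 3 tables, by Pearson correlation of log2(RPKM + 1) over the 9 libraries, which fall into leaf and callus clusters. For WIND2 they were BLH3, CCD1 and NdhS, each at 0.997, all high in leaf. For ABR1 they were SAP5, AT2G39950 and AT4G17840 at 0.980 to 0.981, and for PAT1 they were EMB1923, FLU and EMB2458 at 0.984 to 0.986. For WIND1 the highest was AT3G19370 at 0.944. Between genes of the set the value was 0.924 for WIND2 with ABR1, 0.902 for WIND2 with PAT1 and −0.319 for WIND2 with WIND1. As these values mostly restate the difference between leaf and callus, they are given as a description.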

How the data were processed

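Polyadenylated RNA was measured in 9 libraries. Per the labels' protocols the library kit was TruSeq RNA V2. Per the submitters' processing notes FastQC, cutadapt and TopHat were used with the TAIR10 genome. The read counter, its use of strand and the tool versions are not given in the sources used here. Per the file headers the authors deposited RPKM in 1 table per group, listing genes with a group mean above 1 RPKM (16694 in leaf, 16703 in WT callus and 16646 in emf2 callus), of which 18843 of 18861 matched a locus tag of the TAIR10.1 annotation.

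RPKM values are no counts, so log2(RPKM + 1) was fitted with limma 3.58.1 in R 4.3.3, with 1 coefficient per group, each gene on the tables that hold it, and with moderated spread trended on the mean. Tests were two-sided with Benjamini-Hochberg adjustment over all genes listed in both groups, with 0.05 as the threshold of the adjusted p. Fold changes on this scale understate those of low genes. A gene listed in 1 of the groups compared was tested against log2(1 + 1), the most that a group mean of 1 RPKM allows, with the error of the listed group alone and its own adjustment. The scripts were tested on simulated data. Ratios between libraries gave whole reads for 18861 of 18861 genes (relative tolerance 5e-13), which set the depths and the library-total scaling only. Depth speaks to counting error alone. The deposited denominators stood to the recovered reads as 0.585 to 0.715 in leaf and 1.18 to 1.32 in callus. They were thus not proportional to the recovered totals, and library-total scaling replaces them. How the denominators were set was not tested.

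The genes named are the 9 of the set, the 3 genes most correlated with each one in all tables, counts over each list with values for up to 5 of its highest genes, and EMF2. Where others carry values (ABR1's and ERF109's overlapping genes, ESR1, PSK2, PSK5, PLT5, ERF060, ERF056, ERF112, RAP2.6, MYC2, LBD29 and SCL8), they were chosen after values were seen. No measured value enters the rule for the 9, but the genes and lists were chosen with earlier results of these data known. Alternatives were another pseudocount, filter, scaling, fit and trend, a replicate block and each library left out. Leaving out leaf replicates 2 and 3 together, and using the error of both groups at the bound, were chosen after seeing the data.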

Additional observations from a re-analysis of the deposited data

How the results depend on the processing

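Over 18 alternatives the differences of the genes in the set were computed 379 times beside the reported values: 366 kept direction and side of the threshold, 2 lost the call, 8 gained one and 3 changed sign. The sign changes were in values that did not pass: PAT1 between callus genotypes without WT callus replicate 1 and WIND1 in emf2 callus against leaf without leaf replicate 3 (−0.072) or emf2 callus replicate 2 (−0.022). With 1 library left out PAT1 there ranged from −0.044 to 0.26 and WIND1 from −0.072 to 0.19. WIND1 passed in emf2 callus against leaf under quantile normalization (1.00, adjusted p = 0.00087) and library-total scaling (1.06, adjusted p = 0.000342), where the median of all genes was 0.19 and 0.91, against 0.08 with the deposited values. Counts of passing genes moved more: between callus genotypes 16 genes passed, 57 among genes of at least 5 RPKM, 51 under quantile normalization, 33 under library-total scaling and 3 to 121 with 1 library left out (121 without WT callus replicate 2, 62 without leaf replicate 3, 3 without emf2 callus replicate 2). Against the bound the counts were 114 in that contrast (58 with the filter, 61 with the error of both groups, 63 to 161 with 1 library left out), 2948 in WT callus against leaf (1809 with the filter, 1477 without leaf replicates 2 and 3) and 3168 in emf2 callus against leaf (1919 and 1686). With the error of both groups those last 2 counts were 2557 and 2765. The filter tests fewer genes, and so does leaving out leaf replicates 2 and 3 (2140 and 2257 genes tested in place of 3837 and 3954); for the other settings the cause was not tested. Without leaf replicates 2 and 3 ERF109 had no spread left and no value.

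Same-numbered libraries had correlated deviations of −0.209 to 0.613, and differently numbered libraries of −0.496 to 0.327. The highest value, 0.613, was for replicate 3 of WT callus with replicate 3 of emf2 callus. What those libraries share was not tested, so whether the numbers pair the libraries cannot be told. With the replicate block 24 genes passed between callus genotypes, 9790 in WT callus against leaf and 9770 in emf2 callus against leaf, and the call of no gene in the set changed (ERF115 −3.25, adjusted p = 0.105). Quantile normalization and the block were not run against the bound, where 1 table leaves the block no residual spread.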
